A study of Mus musculus with 32 samples.

Results

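Solute carriers (SLC genes) are membrane proteins that move amino acids, metals, metabolites, bile acids and drugs across the cell surface and across the membranes of mitochondria, the endoplasmic reticulum, the Golgi apparatus and lysosomes. The genes described here are the solute carriers measured at a clear level in mouse liver. They were chosen by symbol (Slc followed by a digit) and by a mean log2 value of at least 5 over all 32 arrays, which gave 86 of the 361 SLC symbols measured. The other symbols were 266 below that level and 9 of the 11 named carriers that the rule set aside, most of them carriers of glucose, fatty acids, bile acids, iron and zinc. The measured level chose the genes, so their level is not a result. Of the 86, 84 were counted as transporters or subunits of transporters, by family. Slc7a6os and Slc9a3r1 share the prefix by name but are not transporters, and both are kept in every count.

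In liver these proteins set what a hepatocyte takes from portal blood and passes to bile, and which metabolites its mitochondria exchange with the cytosol. Family SLC25, made up mostly of mitochondrial carriers, links the citric acid cycle, the urea cycle and fatty acid oxidation to cytosolic metabolism. Families SLC38, SLC6, SLC7 and SLC3 carry amino acids, SLC30 and SLC39 carry zinc in opposite directions, and SLC35 brings nucleotide sugars into the secretory pathway.

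All mice were wild-type C57BL/6NTac males of 14 weeks that had fasted for 10 h and then received palm oil (PO, 2 g/kg) or water by gavage. Liver was taken 6 h later from basal mice (9 palm oil, 7 control). Clamped mice (9 palm oil, 7 control) were instead put on a hyperinsulinemic-euglycemic clamp at 6 h: an insulin infusion of 15 pmol/kg/min with as much glucose as keeps blood glucose at its target. Only the clamped mice carried a jugular catheter, placed 6 to 7 days earlier under ketamine and xylazine, received 110 min of labelled glucose before the insulin, and were killed with ketamine and xylazine instead of isoflurane. Clamped animals were numbered 15 to 32 and basal animals 33 to 52. The effects of insulin, of surgery and infusion, of the later time after gavage, of the anaesthetic and of the animal series cannot be told apart. The design therefore asks which carriers differ between clamped and basal liver after each gavage, and whether palm oil shifts them.

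Each array is 1 mouse, and values are log2 expression values, so that a difference of 1 is a 2-fold difference in signal. The number of arrays, not a read depth, limits the precision. Array medians lay between 1.65 and 1.77. In the 7 basal mice with animal numbers of 44 and above the interquartile range was narrower (2.44 to 2.54) than in the 9 remaining basal mice (2.72 to 2.96) or in clamped mice (2.64 to 2.85). Pancreatic acinar transcripts averaged over 6 in 12 arrays, of which 4 were control basal, 5 palm oil basal, 1 control clamped and 2 palm oil clamped. The summed log2 level of 8 hepatocyte markers was 13.26 to 13.79 over all 32 arrays, with higher medians in clamped mice. The medians were 13.44 (13.34 to 13.66) in control basal and 13.55 (13.26 to 13.66) in palm oil basal mice. In clamped mice they were 13.68 (13.65 to 13.76) after water and 13.67 (13.61 to 13.79) after palm oil.

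The promoter sequences of 4 genes on which the results turn are printed first. Slc10a2 had the largest rise after both gavages and Slc3a1 the smallest p in palm oil mice, Slc30a5 rose after both, and Slc25a10 fell the most after both. The bases are the 250 before the transcription start in RefSeq's gene direction, on build GRCm38.p6, at chr8:5105288-5105537 on the minus strand (Slc10a2), chr17:85028097-85028346 on the plus strand (Slc3a1), chr13:100833428-100833677 on the minus strand (Slc30a5) and chr11:120491587-120491836 on the plus strand (Slc25a10). Capitals mark matches to the motifs named after them.
Slc10a2: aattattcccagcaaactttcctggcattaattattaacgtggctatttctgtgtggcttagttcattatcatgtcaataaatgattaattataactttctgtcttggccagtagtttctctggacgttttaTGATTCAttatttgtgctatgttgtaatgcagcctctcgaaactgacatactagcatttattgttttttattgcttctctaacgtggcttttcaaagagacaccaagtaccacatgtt
Slc3a1: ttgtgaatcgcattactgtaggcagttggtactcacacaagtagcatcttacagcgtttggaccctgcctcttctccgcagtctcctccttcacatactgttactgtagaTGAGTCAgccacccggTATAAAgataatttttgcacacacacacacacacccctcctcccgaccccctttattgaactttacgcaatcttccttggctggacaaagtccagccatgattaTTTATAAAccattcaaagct
Slc30a5: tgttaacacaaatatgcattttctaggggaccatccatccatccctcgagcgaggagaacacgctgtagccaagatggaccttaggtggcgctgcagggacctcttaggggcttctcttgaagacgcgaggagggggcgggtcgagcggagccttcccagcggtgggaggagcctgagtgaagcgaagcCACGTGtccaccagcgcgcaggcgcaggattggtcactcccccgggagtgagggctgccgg
Slc25a10: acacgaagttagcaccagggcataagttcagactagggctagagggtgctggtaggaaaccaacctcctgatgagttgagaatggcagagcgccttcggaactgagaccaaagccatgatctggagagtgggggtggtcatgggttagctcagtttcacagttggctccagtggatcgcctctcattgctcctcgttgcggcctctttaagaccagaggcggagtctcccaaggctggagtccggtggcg
The table of promoters held 68 of the 86 genes, 55 of them with 1 window of 250 bases and the others with more. A gene counted as matched if any of its windows matched. Counts of genes and shares of windows are therefore unlike units and cannot be compared directly. A search for 8 motifs on both strands, chosen with the expression results known, found the AP-1 site TGANTCA in 8 of the 68 genes and in 6.75% of all 32851 windows of that length. Among the genes that passed the test in either clamp comparison it stood in Slc10a2 (118 bases before the start) and Slc3a1 (140 bases), which rose, and in Slc25a11, Slc25a13 and Slc26a1, which fell. The E-box CACGTG was in 13 of the 68 genes and in 6.02% of windows. It stood in Slc30a5 (61 bases before the start), Slc35e3 and Slc33a1, which rose, and in Slc36a1, Slc25a1, Slc25a13 and Slc26a1, which fell. The TATA box TATAAA was in 4 of the 68 genes and in 12.4% of windows. It stood in Slc3a1, where 1 stretch of it matches on both strands with overlap, and in Slc26a1, which fell. The other motifs were the cAMP response element TGACGTCA (1.55% of windows), the C/EBP-ATF response element TGATGNAA (3.45%), the C/EBP palindrome TTGCNCAA (2.61%), the STAT palindrome TTCCNGGAA (0.913%) and an NF-kappaB site (0.356%). Among the called genes, the C/EBP palindrome stood in Slc33a1, which rose, and the NF-kappaB site in Slc6a13, which fell. The Slc25a10 window held none of the 8. A match describes these letters only.

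In clamped control mice, 27 of the 86 carriers changed against basal control mice, 14 higher and 13 lower (31.4%; limma with Benjamini-Hochberg adjustment over all 22180 genes, threshold 0.05). The background was 8.75% of all genes and 22.0% of the 4622 genes at a mean of 5 or more, among which 12.1% rose and 9.93% fell (4.66% and 4.09% of all genes). In palm oil mice 18 of the 86 changed, 9 in each direction (20.9%), against 7.57% of all genes and 17.7% of genes at that level, of which 9.61% rose and 8.14% fell (3.76% and 3.80% of all genes). The share in palm oil mice was thus close to that of other genes at this level. The median difference over the 86 was -0.02 after water and 0 after palm oil, beside -0.02 in both over all genes and 0.03 and 0.02 over genes at that level. Clamped and basal arrays did not overlap for 14 carriers in control mice, where 7.59% of genes at that level and 2.55% of all genes were apart, and for 6 in palm oil mice, where 4.57% and 1.45% were.

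The control and palm oil comparisons share no arrays. The 9 carriers that rose in both were Slc10a2, Slc41a2, Slc3a1, Slc30a5, Slc25a51, Slc38a2, Slc35e3, Slc11a2 and Slc16a10, which were 64.3% of the rises in control mice and 100% of those in palm oil mice. The 7 that fell in both were Slc25a10, Slc6a6, Slc47a1, Slc25a42, Slc6a13, Slc25a11 and Slc36a1, or 53.8% and 77.8% of the falls. The overlap over all genes was not counted, so these shares have no background beside them. No carrier changed in opposite directions, and 57 passed the test in neither. A further 11 passed in control mice alone and 2, Slc25a1 and Slc25a47, in palm oil mice alone. The interaction, which tests whether the difference itself differs by gavage, passed for none of them.

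**Figure D1:**
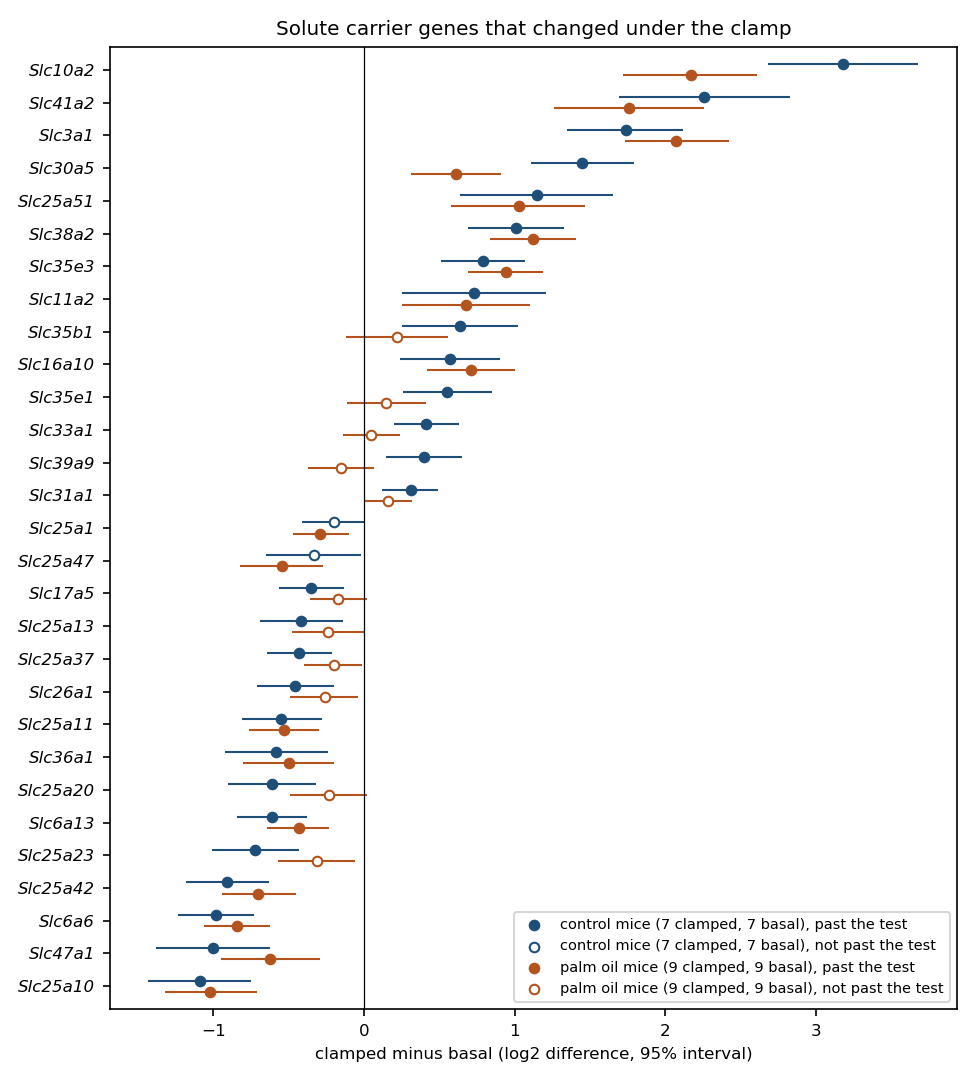
Difference between clamped and basal liver (x axis, log2, with the 95% interval of the limma fit) for the 29 solute carrier genes that passed the test after at least 1 gavage; filled points passed at an adjusted p of 0.05, open points did not. Slc10a2, Slc41a2 and Slc3a1 lie furthest to the right and Slc25a10 furthest to the left after both gavages.

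Bulk liver RNA cannot tell fewer cells of a type from less RNA per cell, which holds for every difference given here. Neutrophil markers moved with the clamp. Of 10, 6 rose after each gavage. Their summed level had medians of 5.84 (5.47 to 6.67) and 5.86 (5.53 to 6.47) in control and palm oil basal mice against 8.42 (7.28 to 9.41) and 8.38 (7.65 to 8.86) in clamped mice. Kupffer cell markers that rose numbered 3 of 7 in control and 2 of 7 in palm oil mice, while of 8 hepatocyte markers 2 rose after each gavage. Of 7 sinusoidal endothelial markers 1 rose and 1 fell after each gavage, and of 7 stellate cell markers 1 rose and 1 fell in palm oil mice alone. None of 4 erythroid markers passed, and of 6 T and B cell markers 1 fell in palm oil mice. The 10 acinar markers measured passed in no comparison, and their median clamp difference was -3.29 after water and -2.83 after palm oil. The part of these cells in the carriers' differences was not tested.

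Apart from Slc7a6os and Slc9a3r1, genes were classed by SLC family number, so single members can differ from their class in substrate or place. Transporters of organic ions and bile acids numbered 11 and included the carrier that rose most. Slc10a2 encodes the sodium-dependent bile acid transporter that takes up bile acids in the ileum and in bile duct cells. Its log2 values ran from 3.63 to 4.44 (median 4.22) in control basal mice and from 6.76 to 7.75 (7.48) in control clamped mice. After palm oil they ran from 3.73 to 5.92 (4.57) basal and from 6.38 to 7.62 (7.07) clamped. Every clamped array lay above every basal array after both gavages, and the palm oil basal arrays (SD 0.7, n = 9) spread more widely than the control basal arrays (SD 0.31, n = 7). The difference was 3.18 ± 0.25 (SE; 9.07-fold; adjusted p = 1.5e-10) in control and 2.17 ± 0.22 (4.49-fold; adjusted p = 1.42e-08) in palm oil mice. Its basal means, 4.11 and 4.8, are below the level that defines these genes, so it entered the list through the clamped mice alone. A group mean below that level was also found for Slc41a2, Slc11a2, Slc20a1, Slc17a5, Slc22a5, Slc25a44 and Slc49a4, and the other 78 genes were at or above it in all 4 groups. Among the 5 bile duct markers measured, Sox9 rose by 1.37 ± 0.28 in control and 0.86 ± 0.25 in palm oil mice (adjusted p = 0.00107 and 0.0238), and the other 4 did not pass. The summed level of these 5 markers had medians of 4.33 (4.14 to 5.13) in control basal and 4.51 (4.23 to 4.76) in palm oil basal mice. In clamped mice the medians were 5.17 (4.48 to 5.86) after water and 5.01 (4.66 to 5.33) after palm oil. The median clamp difference of the 5 was -0.06 after water (-0.21 to 1.37) and 0.05 after palm oil (-0.07 to 0.86). Sox9 was the highest each time. Of the 5 markers, 1 stayed under 1 in every palm oil clamped array, a level at which a change is hard to see. The part of bile duct cells in the Slc10a2 difference was not tested. The share of Sox9 in the higher sum was not tested.

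Slc47a1, which extrudes organic cations and drugs into bile in exchange for protons, moved the other way. Its values were 6.28 to 7.06 (median 6.73) in control basal and 4.2 to 6.16 (5.87) in control clamped mice, and 6.47 to 7 (6.62) and 5.63 to 6.34 (6.12) in palm oil mice. The groups did not overlap after either gavage. The difference was -1 ± 0.19 (adjusted p = 0.000342) in control and -0.62 ± 0.16 (adjusted p = 0.0137) in palm oil mice. The lowest control clamped value belonged to replicate 6, without which the control difference was -0.76 (adjusted p = 7.39e-05). The palm oil call was lost without the 12 arrays high in acinar transcripts (-0.61, adjusted p = 0.228) and without the basal animals numbered 44 or higher (-0.53, adjusted p = 0.114).

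Slc17a5, the lysosomal exporter of sialic acid, fell by 0.35 on the log2 scale (SE 0.11, adjusted p = 0.0335) in control mice, with basal values of 5.06 to 5.47 and clamped values of 4.58 to 5.12. In palm oil mice its difference was -0.17 ± 0.09 (adjusted p = 0.35). The control call was lost without any 1 of 5 arrays, control basal replicates 2, 3 and 4 and control clamped replicates 6 and 7. Slc22a5, the carnitine importer, did not pass, at -0.32 ± 0.2 and -0.13 ± 0.17 (adjusted p = 0.378 and 0.784), and its control difference was -0.16 without control clamped replicate 6. Slc17a2, a relative of the sodium-phosphate carriers, did not pass either, at -0.03 ± 0.15 and -0.16 ± 0.14. The 11 genes of this class ran from -1 to 3.18 in control and from -0.62 to 2.17 in palm oil mice.

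Among 11 metal carriers, 5 rose in control mice and 3 in palm oil mice, and none fell. Of genes at a mean of 5 or more, 12.1% and 9.61% rose. The rule had set other metal carriers aside. Of these, Slc39a14 rose, Slc39a4 did not pass (0.33 ± 0.17 and 0.17 ± 0.15), and Slc40a1 was lower without passing (-0.41 ± 0.17 and -0.4 ± 0.15). Slc41a2, a magnesium transporter, was at 4.22 to 5.56 (median 4.94) in control basal and 6.39 to 7.9 (7.41) in control clamped mice. After palm oil it was at 4.59 to 6.04 (4.87) basal and 5.83 to 7.57 (6.89) clamped. The control groups did not overlap, and in palm oil mice the highest basal array lay above the lowest clamped array. The difference was 2.26 ± 0.28 (4.79-fold; adjusted p = 1.04e-06) in control and 1.76 ± 0.25 (3.38-fold; adjusted p = 5.6e-06) in palm oil mice.

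Slc30a5, which loads zinc into the secretory pathway, was at 4.97 to 5.91 (median 5.53) in control basal and 6.21 to 7.32 (6.83) in control clamped mice. The palm oil groups were at 5.38 to 6.34 (5.8) basal and 5.92 to 6.86 (6.47) clamped. The groups were apart in control mice and overlapped in palm oil mice. The difference was 1.45 ± 0.17 (2.73-fold; adjusted p = 3.19e-07) in control and 0.61 ± 0.15 (1.53-fold; adjusted p = 0.00578) in palm oil mice. The palm oil call was lost without the arrays high in acinar transcripts (0.46, adjusted p = 0.356). The interaction was -0.83 ± 0.22, with an unadjusted p of 0.000683 and an adjusted p of 1, so that a difference between the gavages did not pass.

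Slc11a2, the importer of ferrous iron at the plasma membrane and from endosomes, was at 4.62 to 5.44 in control basal and 4.89 to 6.64 in control clamped mice, and at 4.48 to 5.4 and 4.88 to 6.44 in palm oil mice. The groups overlapped after both gavages. Its mean was 5.02 in control and 4.92 in palm oil basal mice, so its place among the 86 also leans on the clamped mice. It passed narrowly at 0.73 ± 0.24 and 0.68 ± 0.21 (adjusted p = 0.0456 and 0.0397). Leaving out any 1 of 16 arrays ended the control call (for example 0.6, adjusted p = 0.122, without control clamped replicate 6), and any 1 of 10 arrays ended the palm oil call.

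Slc31a1, the high-affinity copper importer, and Slc39a9, a zinc importer, rose in control mice alone, by 0.31 ± 0.09 and 0.4 ± 0.12 (adjusted p = 0.0249 and 0.0319). Slc31a1 was at 7.86 to 8.15 in control basal and 8.22 to 8.54 in control clamped mice, which do not overlap, and differed by 0.16 ± 0.08 in palm oil mice (adjusted p = 0.258). Slc39a9 was at 5.06 to 5.85 and 5.58 to 6.53 in the same control groups, which overlap, and differed by -0.15 ± 0.11 in palm oil mice (adjusted p = 0.505). Both calls were lost without the basal animals numbered 44 or higher (0.26 and 0.19, adjusted p = 0.153 and 0.582) and without the acinar-high arrays (0.32 and 0.55, adjusted p = 0.129 and 0.069). Leaving out any 1 of 4 arrays ended the call of Slc31a1 and any 1 of 5 that of Slc39a9, control basal replicate 4 and control clamped replicate 2 among them in both cases. The other 6 metal carriers, Slc30a6, Slc30a7, Slc30a9, Slc39a1, Slc39a7 and Slc48a1, passed in neither comparison.

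**Figure D2:**
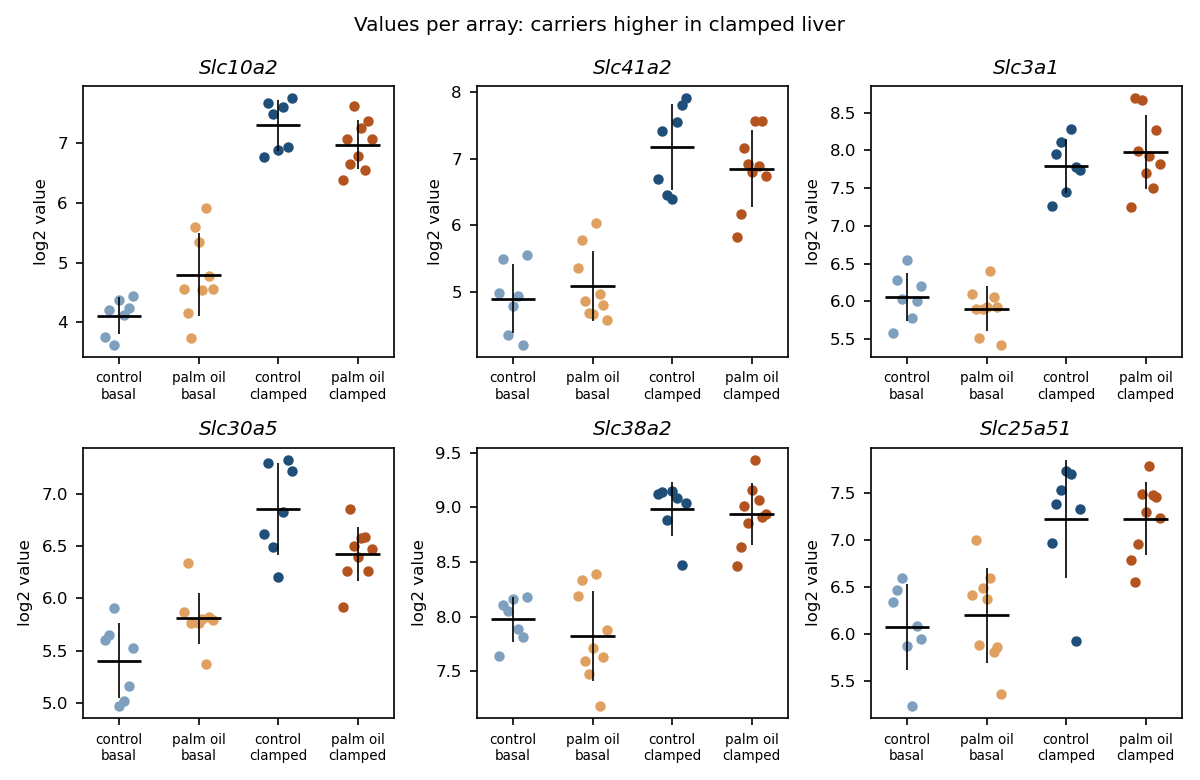
Log2 expression values (y axis) of 6 solute carrier genes that rose under the clamp after both gavages, 1 point per mouse in each of the 4 groups; horizontal lines are group means and vertical lines 1 SD. For Slc10a2, Slc3a1 and Slc38a2 every clamped mouse lies above every basal mouse of the same gavage, and in the Slc25a51 panel 1 control clamped mouse lies at 5.92, the lowest of its group.

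Of the 13 genes classed as amino acid carriers by family, 2 rose and 3 fell after both gavages. Among genes at a mean of 5 or more, 12.1% rose and 9.93% fell in control mice, and 9.61% and 8.14% in palm oil mice. Slc3a1 encodes the heavy subunit that brings the exchanger of cystine and dibasic amino acids to the membrane. It was at 5.59 to 6.54 (median 6.03) in control basal and 7.26 to 8.29 (7.79) in control clamped mice, and at 5.43 to 6.4 (5.92) and 7.25 to 8.69 (7.92) in palm oil mice. No clamped array overlapped a basal one. The difference was 1.74 ± 0.19 (3.33-fold; adjusted p = 1.2e-07) in control and 2.07 ± 0.17 (4.21-fold; adjusted p = 1.87e-10) in palm oil mice. The heavy chain of the other such exchangers, Slc3a2, did not pass, at 0.24 ± 0.12 and 0.09 ± 0.1 (adjusted p = 0.237 and 0.753).

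Slc38a2, the sodium-coupled importer of small neutral amino acids known as system A, was at 7.64 to 8.18 (median 8.05) in control basal and 8.47 to 9.15 (9.09) in control clamped mice. The palm oil groups were at 7.18 to 8.39 (7.71) basal and 8.46 to 9.44 (8.94) clamped. The groups were apart after both gavages. The difference was 1.01 ± 0.16 (2.01-fold; adjusted p = 3.85e-05) in control and 1.12 ± 0.14 (2.18-fold; adjusted p = 8.2e-07) in palm oil mice. Its relatives Slc38a3, a glutamine carrier, and Slc38a4, a neutral and cationic amino acid carrier, did not pass. Slc38a3 differed by -0.02 ± 0.08 and 0.02 ± 0.07, and Slc38a4 by -0.2 ± 0.12 and 0.05 ± 0.11. Control clamped replicate 6 stood at 9.29 for Slc38a4 while the rest of its group was at 10.14 or more, and without it the control difference was -0.05.

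Slc6a6, the taurine transporter, was at 7.2 to 7.63 (median 7.23) in control basal and 6.14 to 6.44 (6.35) in control clamped mice, and at 6.8 to 7.38 (7.18) and 5.86 to 6.98 (6.29) in palm oil mice. The control groups were apart and the palm oil groups overlapped. The difference was -0.98 ± 0.12 (1.97-fold lower; adjusted p = 1.22e-06) in control and -0.84 ± 0.11 (1.79-fold lower; adjusted p = 1.28e-06) in palm oil mice. Slc6a13, which carries GABA and taurine, was at 7.53 to 8 and 6.72 to 7.46 in control basal and clamped mice and at 7.27 to 7.88 and 7.1 to 7.59 in palm oil mice. It fell in both, at -0.61 ± 0.11 and -0.43 ± 0.1 (adjusted p = 0.000409 and 0.0045). Without the basal animals numbered 44 or higher its control difference was -0.44 and did not pass (adjusted p = 0.0647).

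Slc36a1, the proton-coupled exporter of small amino acids from lysosomes, was at 5.34 to 5.76 in control basal and 4.61 to 6.23 in control clamped mice, and at 5.41 to 5.85 and 4.6 to 5.63 in palm oil mice. Control clamped replicate 6 was the highest of its group and above every control basal array. The difference was -0.58 ± 0.17 and -0.5 ± 0.15 (adjusted p = 0.0232 and 0.0315), and -0.78 in control mice without that array (adjusted p = 3.43e-05). Leaving out control clamped replicate 1 or 7 ended the control call, and any 1 of 8 arrays ended the palm oil call. Both calls were lost without the acinar-high arrays (-0.45 and -0.51, adjusted p = 0.392 and 0.311). Slc7a2, the carrier of arginine and lysine, differed by 0.01 ± 0.18 and 0.29 ± 0.16, and Slc1a2, a glutamate carrier, by 0.05 ± 0.1 and 0.16 ± 0.09, with no call.

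The 22 genes of family SLC25 were classed together as mitochondrial carriers by family, not gene by gene. They held 1 rise and 7 falls in control mice, and 1 rise and 5 falls in palm oil mice. The class medians were -0.22 and -0.23. Of genes at a mean of 5 or more, 12.1% and 9.61% rose and 9.93% and 8.14% fell. Slc25a51, which brings NAD into mitochondria, was the rise in both. It was at 5.23 to 6.59 (median 6.08) in control basal and 5.92 to 7.72 (7.37) in control clamped mice, and at 5.36 to 7 (6.37) and 6.55 to 7.78 (7.29) in palm oil mice. The groups overlapped after both gavages. The difference was 1.15 ± 0.25 and 1.03 ± 0.22 (adjusted p = 0.00198 and 0.00168). The control call was lost without the basal animals numbered 44 or higher (0.76, adjusted p = 0.154), and the palm oil call without the acinar-high arrays (0.74, adjusted p = 0.258). Without control clamped replicate 6 the control difference was 1.36.

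Slc25a10, which exchanges malate and succinate for phosphate, was at 6.19 to 6.75 (median 6.54) in control basal and 4.6 to 5.98 (5.49) in control clamped mice. With palm oil it was at 6.17 to 6.85 (6.32) basal and 4.84 to 5.91 (5.58) clamped. Every clamped array was below every basal array after both gavages. The difference was -1.09 ± 0.17 (2.13-fold lower; adjusted p = 2.62e-05) in control and -1.02 ± 0.15 (2.02-fold lower; adjusted p = 1.07e-05) in palm oil mice. Slc25a42, the mitochondrial carrier of coenzyme A, was at 6.59 to 6.93 and 5.33 to 6.11 in control basal and clamped mice, and at 6.56 to 7.16 and 5.71 to 6.62 in palm oil mice. The control groups were apart and the palm oil groups overlapped at their edges. It fell in both, at -0.91 ± 0.13 (adjusted p = 1.62e-05) and -0.7 ± 0.12 (adjusted p = 0.000109).

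Slc25a11, the exchanger of oxoglutarate and malate in the malate-aspartate shuttle, fell in both, at -0.55 ± 0.13 and -0.53 ± 0.11 (adjusted p = 0.00498 and 0.00213). Its values were 6.8 to 7.42 and 6.1 to 6.88 in control basal and clamped mice and 7.1 to 7.46 and 6.18 to 7.13 in palm oil mice, so the groups overlapped at the edges. The control call was lost without the acinar-high arrays (-0.52, adjusted p = 0.139). Slc25a13, the aspartate-glutamate carrier of the same shuttle, passed in control mice alone at -0.42 ± 0.14 (adjusted p = 0.0479), from 8.07 to 8.51 basal and 6.99 to 8.16 clamped. Leaving out any 1 of 22 arrays ended that call, among them control clamped replicate 6 (-0.27, adjusted p = 0.138).

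Slc25a23, a carrier of ATP-magnesium and phosphate, fell in control mice at -0.72 ± 0.14 (adjusted p = 0.00068), from 7.84 to 8.19 basal to 6.39 to 7.68 clamped with no overlap. In palm oil mice it differed by -0.31 ± 0.12 (adjusted p = 0.137). Slc25a20, which brings acylcarnitines into mitochondria for oxidation, passed in control mice at -0.61 ± 0.14 (adjusted p = 0.00444), from 6.65 to 7.34 basal to 5.57 to 6.84 clamped, and not in palm oil mice (-0.23 ± 0.13, adjusted p = 0.336). Its control call was lost without the acinar-high arrays (-0.46, adjusted p = 0.198). Slc25a37, which imports iron for haem synthesis, passed in control mice at -0.43 ± 0.11 (adjusted p = 0.00824), from 5.69 to 6.44 basal to 5.39 to 5.77 clamped. Its call was lost without the basal animals numbered 44 or higher (-0.3, adjusted p = 0.182), and in palm oil mice it differed by -0.2 ± 0.09 (adjusted p = 0.231).

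Slc25a47, a mitochondrial carrier enriched in liver, passed in palm oil mice alone at -0.54 ± 0.14 (adjusted p = 0.00862), beside -0.33 ± 0.15 in control mice (adjusted p = 0.209). Its palm oil values were 8.94 to 9.55 basal and 7.94 to 9.09 clamped, and the call was lost without the acinar-high arrays (-0.46, adjusted p = 0.314) and without the basal animals numbered 44 or higher (-0.5, adjusted p = 0.0661). Slc25a1, which exports citrate for fatty acid synthesis, passed in palm oil mice by the narrowest margin, at -0.29 ± 0.09 (adjusted p = 0.049), beside -0.2 ± 0.1 in control mice (adjusted p = 0.276). Leaving out any 1 of 25 arrays ended the call of Slc25a1. Slc25a25, a further ATP-magnesium carrier, did not pass, at 0.45 ± 0.29 and 0.19 ± 0.25.

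**Figure D3:**
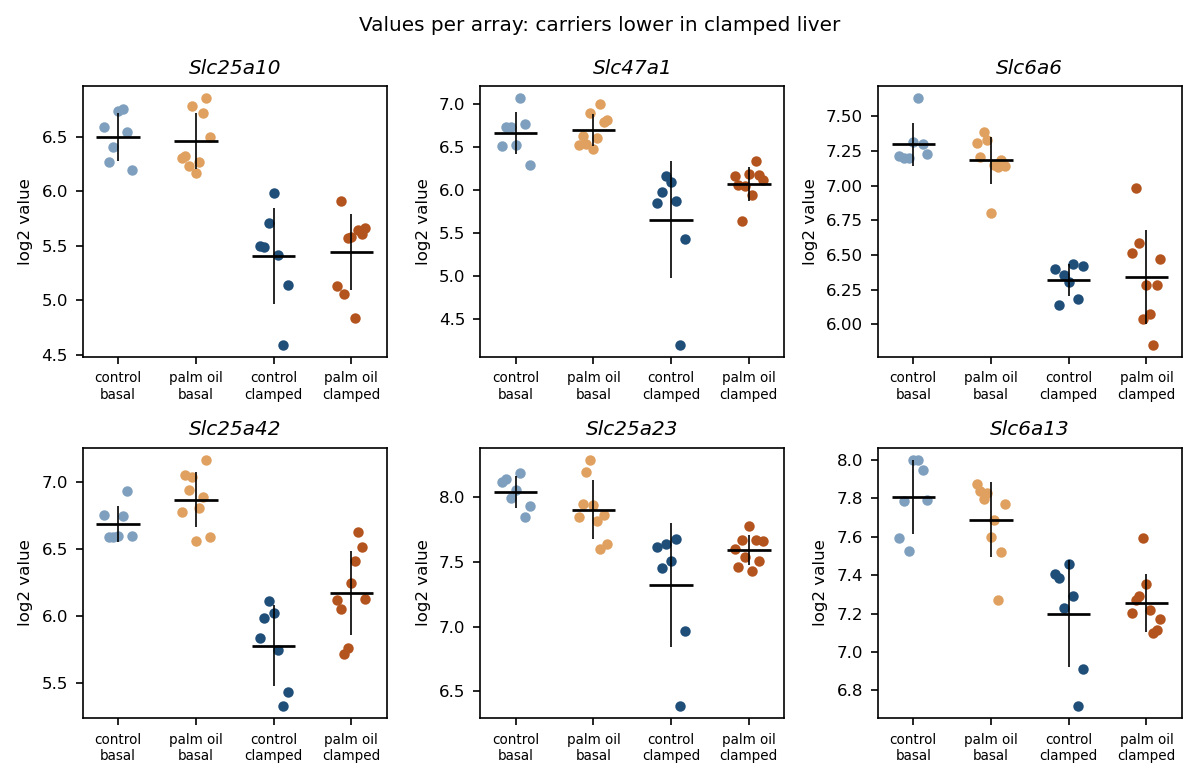
Log2 expression values (y axis) of 6 solute carrier genes that were lower in clamped control liver, 1 point per mouse in each of the 4 groups; horizontal lines are group means and vertical lines 1 SD. For Slc25a10 and Slc47a1 every clamped mouse lies below every basal mouse of the same gavage; Slc25a23 passed the test in control mice only.

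The SLC33 and SLC35 families, which serve the endoplasmic reticulum and Golgi apparatus and include the nucleotide sugar carriers, held 8 genes. In control mice 4 of them rose and in palm oil mice 1, and none fell, where 12.1% and 9.61% of genes at a mean of 5 or more rose. None of the 4 is an established nucleotide sugar carrier. Slc35e3, whose substrate is not established, rose in both. It was at 5.15 to 5.91 (median 5.52) in control basal and 5.95 to 6.67 (6.31) in control clamped mice, and at 4.84 to 5.85 (5.47) and 6.2 to 6.72 (6.4) in palm oil mice. The groups were apart after both gavages, at 0.79 ± 0.14 (1.73-fold; adjusted p = 0.000166) and 0.94 ± 0.12 (1.92-fold; adjusted p = 1.55e-06).

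The other 3 rises of these families were in control mice alone. Slc33a1, which brings acetyl-CoA into the endoplasmic reticulum, was at 5.44 to 5.92 basal and 5.92 to 6.49 clamped (0.41 ± 0.11, adjusted p = 0.0101). Slc35b1, which exchanges ATP for ADP across that membrane, was at 6.81 to 7.56 and 7.26 to 8.78 (0.64 ± 0.19, adjusted p = 0.0287). Slc35e1, whose substrate is not established, was at 5.88 to 6.14 and 6.13 to 7.41 (0.55 ± 0.14, adjusted p = 0.0103). Only the groups of Slc33a1 did not overlap, and after rounding they touch. In palm oil mice the 3 differed by 0.05 ± 0.09, 0.22 ± 0.17 and 0.15 ± 0.13, with adjusted p = 0.855, 0.553 and 0.597. All 3 control calls were lost without the acinar-high arrays, at differences of 0.42, 0.65 and 0.57 that were as large as before (adjusted p = 0.114, 0.239 and 0.14). They were also lost without the basal animals numbered 44 or higher, at 0.29, 0.7 and 0.62 (adjusted p = 0.271, 0.141 and 0.0606). Leaving out any 1 of 4 arrays, control clamped replicate 6 among them (0.48, adjusted p = 0.0885), ended the call of Slc35b1.

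Among the 4 genes of families SLC13 and SLC16, classed as carboxylate carriers by family, Slc16a10 rose in both comparisons. It carries aromatic amino acids by facilitated diffusion but belongs to the family of monocarboxylate carriers, so it is not counted in the amino acid class. Its values were 6.74 to 7.87 (median 7.54) in control basal and 7.17 to 8.34 (8.12) in control clamped mice, and 7.05 to 7.86 (7.53) and 7.81 to 8.39 (8.21) in palm oil mice. The groups overlapped after both gavages, and control clamped replicate 6 was the lowest of its group. The difference was 0.57 ± 0.16 and 0.71 ± 0.14 (adjusted p = 0.0197 and 0.000828), and 0.72 in control mice without that array. The control call was lost without control basal replicate 3 and without the basal animals numbered 44 or higher (0.66, adjusted p = 0.0826), and the palm oil call without the acinar-high arrays (0.61, adjusted p = 0.0642).

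Of 6 carriers of inorganic ions, Slc26a1, which exchanges sulfate and oxalate, passed in control mice alone. It was at 7.49 to 8.06 in control basal and 6.71 to 7.73 in control clamped mice (-0.46 ± 0.12, adjusted p = 0.0151), and differed by -0.26 ± 0.11 in palm oil mice (adjusted p = 0.168). Its call was lost without the basal animals numbered 44 or higher (-0.35, adjusted p = 0.298), without the acinar-high arrays (-0.52, adjusted p = 0.113) and under 5 other alternatives. Slc20a1, a phosphate importer, narrowly missed the threshold at 0.64 ± 0.21 and 0.53 ± 0.19 (adjusted p = 0.0532 and 0.0815), and 1 control clamped array reached 7.11 where the group's median was 5.49. None of the 6 carriers of vitamins and nucleosides passed, nor did Slc2a1, the glucose carrier of many cell types (0.2 ± 0.15 and -0.01 ± 0.13), the peptide carrier Slc15a4, Slc49a4, Slc7a6os or Slc9a3r1.

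**Figure D4:**
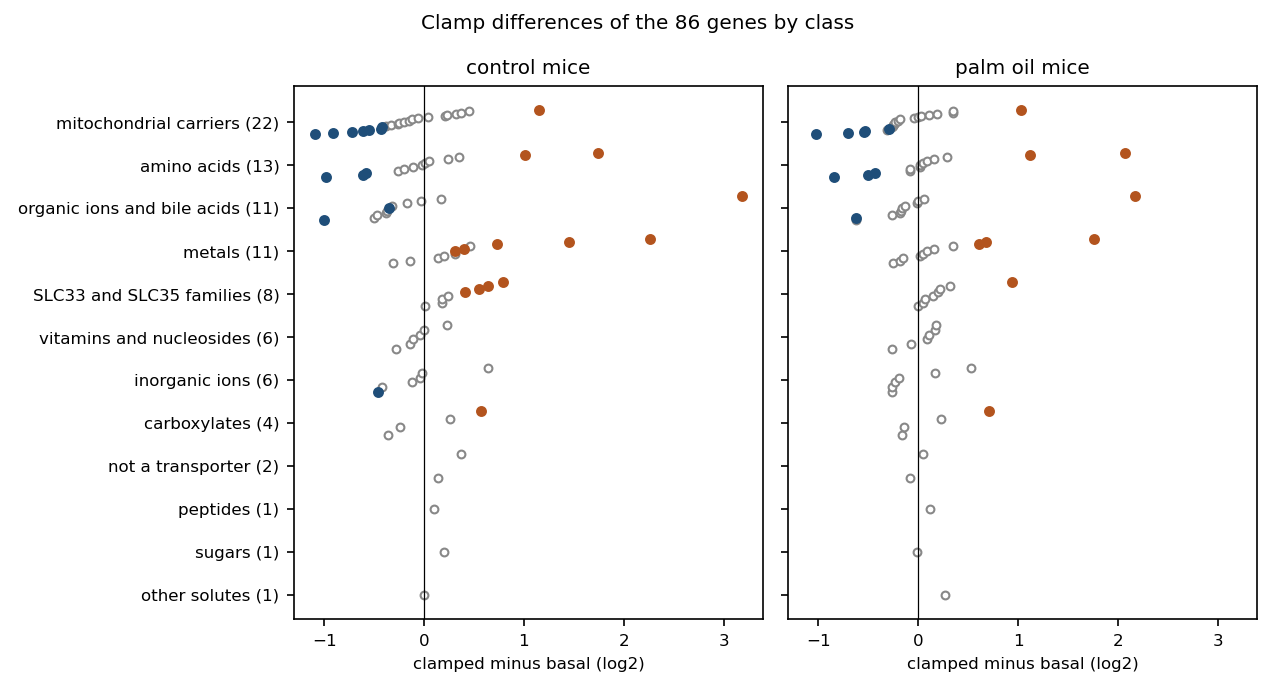
Difference between clamped and basal liver (x axis, log2) of all 86 genes, 1 point per gene, by substrate or family (number of genes in parentheses), in control mice (left) and palm oil mice (right); orange points rose and blue points fell at an adjusted p of 0.05, and open points did not pass. The called metal carriers and the called members of the SLC33 and SLC35 families all lie to the right of 0, and 7 of the 8 called mitochondrial carriers of control mice lie to the left.

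Palm oil moved no carrier past the threshold. In basal mice, in clamped mice and in the interaction, limma called 0 of the 86, as it did 0 of 22180 genes (background 0%). At an unadjusted p under 0.05 in limma there were 6, 7 and 9 carriers (6.98%, 8.14% and 10.5%), beside 3.55%, 3.4% and 2.34% of genes at a mean of 5 or more. Over all 22180 genes there were 1134, 781 and 773. The smallest adjusted p among the carriers was 0.96, 1 and 1. An exact rank sum test also called 0 in basal and in clamped mice, with 7 and 3 carriers at an unadjusted p under 0.05 (8.14% and 3.49%, beside 3.79% and 2.36% of genes at a mean of 5 or more). The 95% interval excluded a 2-fold difference for 84 of 86 carriers in basal and 85 in clamped mice, and a 1.5-fold difference for 77 and 70. For the interaction it excluded 2-fold for 80 and 1.5-fold for 50. These contrasts share arrays with each other and with the clamp comparisons.

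In basal mice the 5 carriers with the smallest p were Slc39a9, Slc10a2, Slc17a3, Slc30a5 and Slc31a1, all with higher values after palm oil. Slc10a2 differed by 0.69 ± 0.23 (interval 0.21 to 1.16, unadjusted p = 0.00577) and Slc39a9 by 0.37 ± 0.12 (unadjusted p = 0.00278). Slc17a3, an organic anion carrier, differed by 0.27 ± 0.09, with values of 6.65 to 7.22 in control and 7.09 to 7.49 in palm oil mice. The adjusted p was 0.96 for all 5. In clamped mice the 5 were Slc25a42 (0.39 ± 0.13), Slc38a10 (-0.39 ± 0.14), Slc30a5 (-0.43 ± 0.16), Slc10a5 (0.45 ± 0.17) and Slc26a1 (0.3 ± 0.12), each at an adjusted p of 1. For Slc10a5, a relative of the bile acid carriers, the difference was 0.21 without control clamped replicate 6.

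The order of the groups for Slc10a2 and Slc30a5 was control basal, palm oil basal, palm oil clamped, control clamped, by median. Neighbours on the same side of the clamp were not told apart by the test. The interaction was -1.01 ± 0.33 for Slc10a2, -0.56 ± 0.16 for Slc39a9, -0.63 ± 0.23 for Slc30a7, which brings zinc into the Golgi apparatus, and -0.36 ± 0.14 for Slc33a1, each at an adjusted p of 1.

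**Figure D5:**
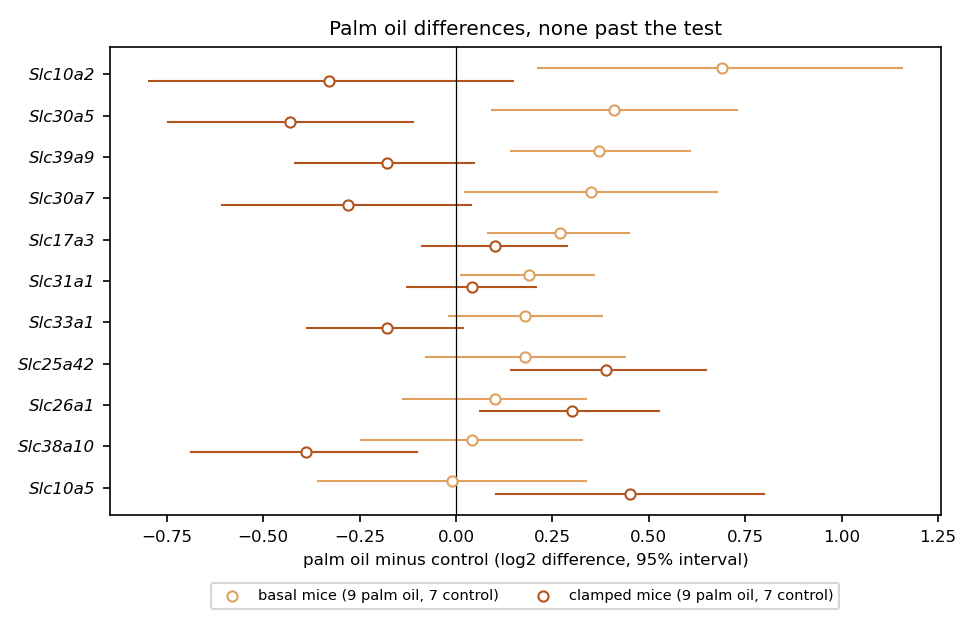
Difference between palm oil and control liver (x axis, log2, with the 95% interval of the limma fit) in basal and in clamped mice for the carriers with the 5 smallest p in either comparison or in the interaction. None passed the test; for Slc30a5 the basal difference is 0.41 and the clamped difference -0.43.

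Carriers outside the 86 are given for context. Just below the level of 5, Slc16a1, the lactate and pyruvate carrier (mean 4.95), fell at -0.49 ± 0.14 and -0.82 ± 0.13 (adjusted p = 0.0251 and 2.59e-05), Slc23a2, an ascorbate carrier (4.95), fell at -0.64 ± 0.2 and -0.76 ± 0.17 (adjusted p = 0.0322 and 0.00341), and Slc38a7 (4.94) did not pass. Just above it were Slc22a5 and Slc17a5 (5.07 each) and Slc25a44 (5.1). Of the 266 symbols below the level, 24 changed in control mice (9 rose and 15 fell, 9.02%) and 20 in palm oil mice (6 and 14, 7.52%). Over all genes 8.75% and 7.57% changed, but those shares include the brighter genes. The share among all genes below the level was not counted, so there is no matched background. Slc37a1, a sugar phosphate carrier singled out after its values were seen, rose by 2.3 ± 0.28 and 1.98 ± 0.25 (adjusted p = 7.29e-07 and 7.45e-07). Of the 9 carriers set aside by the rule and measured, Slc2a2, the glucose carrier of hepatocytes, fell at -1.15 ± 0.21 and -1.06 ± 0.19, Slc39a14, a zinc and iron importer, rose by 1.25 ± 0.16 and 0.9 ± 0.14, and Slc10a1, the bile acid importer of hepatocytes, fell in control mice alone (-0.45 ± 0.13, adjusted p = 0.0269).

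Other transport proteins were read from lists of known carriers. Of 13 ABC pumps, 1 rose and 6 fell in control mice, and 1 rose and 2 fell in palm oil mice. Over all genes, 4.66% rose and 4.09% fell in control mice, and 3.76% and 3.80% in palm oil mice. At a mean of 5 or more these shares were 12.1% and 9.93%, and 9.61% and 8.14%. Abca1, the cholesterol exporter, rose by 0.75 ± 0.17 and 0.54 ± 0.15 (adjusted p = 0.00251 and 0.0148). Abcg8, part of the exporter of sterols into bile, fell at -0.83 ± 0.18 and -0.61 ± 0.16 (adjusted p = 0.00208 and 0.0129), and Abcc3, which exports conjugates to blood, fell at -0.67 ± 0.12 and -0.48 ± 0.11 (adjusted p = 0.000335 and 0.00318). None of 9 organic anion transporting polypeptides, 3 sodium pump subunits and 1 subunit of the mitochondrial pyruvate carrier passed in either clamp comparison. Of 5 partner proteins of solute carriers, Cp, the ferroxidase ceruloplasmin, rose by 0.42 ± 0.1 and 0.49 ± 0.09 (adjusted p = 0.00775 and 0.000395). None of these genes passed in the palm oil comparisons.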

How the data were processed

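Liver RNA of 32 mice, 1 mouse per array, was extracted with miRNeasy columns, amplified, biotin-labelled and hybridised to Affymetrix arrays, per the labels' protocols. The authors deposited log2 values that, per the submitters' processing notes, came from RMA (Affymetrix Expression Console 1.3.0.187), which subtracts background, equalises arrays and compresses low values. The values were used as deposited. The table held 41345 probe sets, of which 23521 had 1 gene symbol in the platform annotation, 1814 several and 16010 none listed. Only those with 1 symbol were analysed. The probe set with the highest mean stood for a gene (1082 genes, 4 of the 86 carriers, had several), which left 22180 genes. A further 10 SLC symbols lay only on probe sets with several symbols and were not used here.

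Groups came from the sample titles. limma 3.58.1 (lmFit and eBayes, R 4.3.3) fitted 1 mean per group to all genes (28 residual degrees of freedom) with 5 contrasts, and p-values were adjusted by Benjamini-Hochberg over all genes of a contrast. Every adjusted p is from this fit unless a setting is named, values after ± are standard errors, and intervals are at 95%. The labels name separate mice but no litters. The functions were tested on simulated data. Array pairs correlated at 0.976 at most, and none held identical values.

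The genes described, the lists, classes and motifs were chosen with earlier results of these data known. Named were the 10 largest rises and falls past the threshold in each clamp comparison, the 5 smallest p in each palm oil contrast, 18 carriers from a list of 30 well-known ones, the 3 genes on each side of the level of 5, and up to 3 called genes of each other list. Slc17a5, Slc25a13, Slc25a37 and Slc35e1 fall outside this rule and are named because they were called. Promoters are RefSeq's (GRCm38.p6). Alternatives covered the level, dim genes, probe sets, 1 median or repeated quantile normalization, priors, array weights, replicate block, animal number, groups fitted, threshold, fold size, leaving out arrays and an exact rank sum test. Animals numbered 44 or higher and acinar level as terms were added after seeing the data.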

Additional observations from a re-analysis of the deposited data

Results flagged for a closer look

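Of 172 groups examined (43 named carriers in 4 groups), 10 held a highest or lowest array far from the rest of its group. Chance gives about 1 in 20. Control clamped replicate 6 accounted for 6 of them. It was the lowest of 7 for Slc16a10 (7.17, next 8.04), Slc25a51 (5.92, next 6.97), Slc38a2 (8.47, next 8.88), Slc38a4 (9.29, next 10.14) and Slc47a1 (4.2, next 5.42), and the highest for Slc36a1 (6.23, next 4.93). Without it the control clamp difference was 0.72 for Slc16a10, 1.36 for Slc25a51, 1.09 for Slc38a2, -0.05 for Slc38a4, -0.76 for Slc47a1 and -0.78 for Slc36a1, with the same side of the threshold as before.

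The taurine transporter Slc6a6 had its highest control basal value in replicate 5 (7.63, next 7.31) and its lowest palm oil basal value in replicate 5 of that group (6.8, next 7.14). Control basal replicate 4 was the highest of its group for Slc1a2 (6.76, next 6.52). Palm oil basal replicate 8 was the highest of its group for Slc38a10 (5.69, next 5.17).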

How the results depend on the processing

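The 27 carriers called in control mice became 17 (of 53) when the level was set at 6, 17 with the compared groups alone, 17 with the exact rank sum test, 17 without basal animals numbered 44 or higher and 15 without the 12 arrays high in acinar transcripts. The share called among all genes at a mean of 5 or more was 22%, 14.5%, 14%, 11.3% and 10.8% under these settings, beside 32.1%, 19.8%, 19.8%, 19.8% and 17.4% of the carriers. For the level of 6 the 22% still covers genes at 5 or more, so that pair is not matched by level. The 18 called in palm oil mice became 11 without the acinar-high arrays. That was 12.8% of the carriers, beside 7.36% of genes at that level. Apart from the rank sum test these settings use fewer genes or fewer arrays, and the cause was not tested further. No clamped animal is numbered 44 or higher, so no clamp comparison within that set was possible. With animals 44 or higher as a term on all 32 arrays, 23 carriers were called in control and 19 in palm oil mice. That was 26.7% and 22.1%, beside 17% and 16.1% of genes at a mean of 5 or more. With acinar level as a term there were 20 and 15 calls (23.3% and 17.4%, beside 15.9% and 13.1%). Repeated quantile normalization gave 10 rises and 16 falls in control mice in place of 14 and 13. Leaving out 1 array gave 21 (without control clamped replicate 7) to 29 calls in control mice, 15 to 19 in palm oil mice and 0 in the palm oil contrasts and the interaction. With the replicate number as a block there were 24 and 15 calls, and 0 in the other contrasts. The numbers did not pair the mice: same-numbered arrays correlated between -0.44 and 0.49 (median 0.02, 16 pairs above 0.1).

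Of 83 results for named carriers, 45 were called, 21 of these stayed called under every alternative run and with every array left out, and no called result changed sign. The 21 were Slc10a2, Slc41a2, Slc3a1, Slc38a2, Slc35e3, Slc25a10, Slc6a6 and Slc25a42 after both gavages, Slc30a5, Slc47a1 and Slc25a23 in control mice, and Slc25a11 and Slc6a13 in palm oil mice. Slc20a1, not called, passed under 5 alternatives in each clamp comparison, and Slc38a4 passed in control mice with repeated quantile normalization (-0.36). Signals near the array background are compressed, which limits what is seen for carriers near the level of 5.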
